A study of Rattus norvegicus with 18 samples.

Results

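The frontal lobe comparison of 0.2 with 0.002 mg/kg BDE-47 rests on 6 of the 18 arrays of the series: the 3 frontal lobe arrays of the 0.2 mg/kg group and the 3 of the 0.002 mg/kg group, chosen by their sample labels and described over all 22523 probes. BDE-47 is a tetrabrominated diphenyl ether, a persistent component of flame retardant mixtures that reaches offspring across the placenta and through milk. Messenger RNA was profiled on Illumina rat expression arrays from individual female Wistar pups, a single randomly chosen pup per litter, so each array stands for 1 litter. Pregnant and nursing dams received 0.2 mg/kg body weight of BDE-47, 0.002 mg/kg, or vehicle alone (ethanol, Cremophor EL and water) by caudal injection, with 3 dams in each group. According to the sample protocol of the frontal lobe arrays, each dam received 6 injections between gestational day 15 and postnatal day 20, and pups were killed on postnatal day 41. The text describing the whole series instead gives 3 injections and day 10, which the total brain protocol also gives; the sample protocol was followed here. The 3 vehicle arrays of the frontal lobe entered the fit and are given beside the doses, and total brain arrays served for a comparison of tissues.

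The frontal lobe holds excitatory projection neurons that release glutamate, inhibitory interneurons that release GABA, and glia. Glutamate is loaded into synaptic vesicles, which dock at the active zone, fuse when calcium enters, and are retrieved by clathrin and dynamin. Ribosomes, which make the proteins of the cell, consist of ribosomal RNA and a set of small ribosomal proteins that are usually made in matched amounts. Polybrominated diphenyl ethers are known for lowering circulating thyroid hormone and for disturbing neuronal calcium handling.

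Levels are given on the log2-like scale of the deposited table, on which a difference of 1 is about a 2-fold change, and ran from 7.45 to 15.69 over the 9 frontal lobe arrays with a median of 7.83. Of all probes, 58.5% had a mean under 8, close to the floor. Between arrays of the same dose, values correlated across probes at r between 0.992 and 0.995 at 0.2 mg/kg and between 0.995 and 0.997 at 0.002 mg/kg. The median SD of a probe was 0.050 at 0.2 mg/kg and 0.039 at 0.002 mg/kg, and 3 arrays per group limit the precision. One array, replicate 2 of the 0.2 mg/kg group, lay farthest along the first principal component of the 9 arrays, which held 44.5% of their variance. It scored 24.67 there, the other 0.2 mg/kg arrays 14.95 and 10.19, the 0.002 mg/kg arrays between -12.89 and -7.39, and the vehicle arrays between -12.32 and 3.37. The labels name no chip or batch. In bulk tissue, fewer cells of a type and less RNA per cell cannot be told apart.

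The tissue label was checked against markers. Neurod6, a transcription factor of cortical projection neurons, stood at 11.09 ± 0.33 at 0.2 mg/kg and 11.64 ± 0.05 at 0.002 mg/kg (mean ± SD, n = 3 each). Slc17a7, the vesicular glutamate transporter of those neurons, stood at 9.69 ± 0.20 and 10.60 ± 0.09 in the same order of doses. Of 9 measured markers of cortical projection neurons, 1 had a mean under 8. Ttr, the transthyretin of the choroid plexus, lay between 7.81 and 8.57 on the 6 compared arrays. Markers of cortical neurons were thus present. In total brain Neurod6 stood at 11.17 and 11.32 and Slc17a7 at 9.48 and 9.115, in the same order of doses. Their presence therefore does not tell frontal lobe from total brain. Ttr was near the floor on the compared arrays; among the vehicle arrays it reached 10.71 in replicate 1.

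At 0.2 mg/kg, genes for ribosomal proteins, some subunits of mitochondria and the proteasome, and the growth factor genes Igf2 and Igfbp2 were higher than at 0.002 mg/kg. Genes for the release and retrieval of synaptic vesicles, the calcium pump gene Atp2b2 and the myosin gene Myo5a were lower. In all, 646 of 22523 probes (2.87%) passed the limma test at an adjusted p under 0.05, 321 higher (1.43%) and 325 lower (1.44%) at 0.2 mg/kg. They are called rises and falls below. The median difference was 0.46 among rises and -0.44 among falls, and 38 probes, 11 higher and 27 lower, differed by at least 1. Of the 646, 469 carried a gene symbol. All 646 had groups that did not overlap, as did 26.2% of all probes. Of the 646, 4.3% had a mean under 8, against 58.5% of all probes. Shares over all probes or all genes, given here and below, were not matched for level to the calls or lists beside them. The plot of difference against level shows rises and falls over the whole range above the floor.

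**Figure D1:**
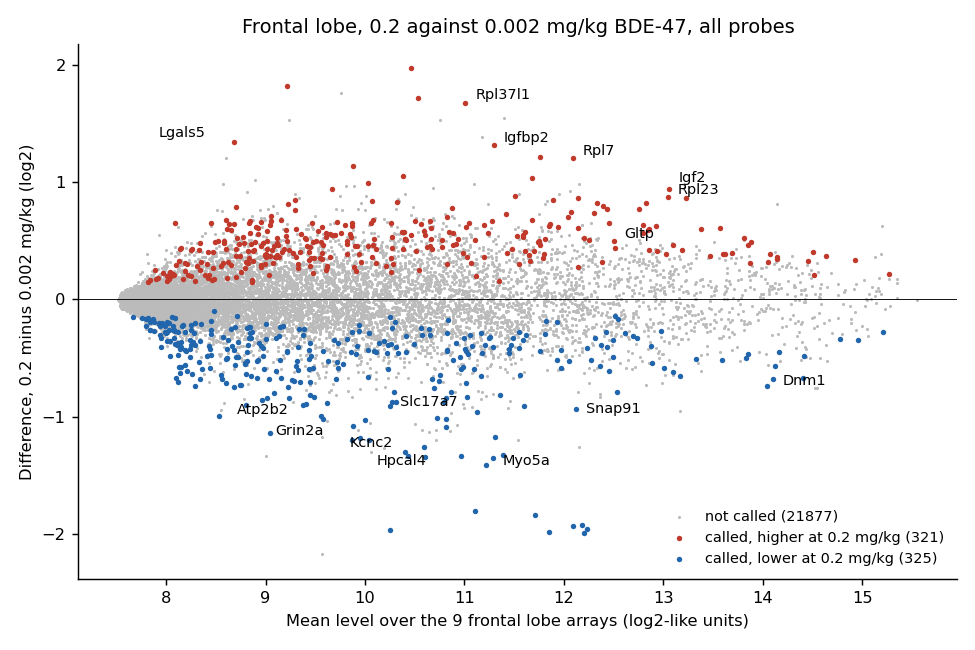
Difference between 0.2 and 0.002 mg/kg (log2) against the mean level over the 9 frontal lobe arrays (log2-like units), 1 point per probe. Red points are the 321 probes called higher at 0.2 mg/kg, blue points the 325 called lower and grey points the rest; the largest differences lie near 2 in either direction, and few called probes lie below a level of 8.

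Leaving out single arrays changed the number of calls strongly. Without replicate 2 of the 0.2 mg/kg group 216 probes were called, without its replicate 1 407, and without its replicate 3 823. Without replicate 1, 2 or 3 of the 0.002 mg/kg group the counts were 37, 28 and 65. Without vehicle replicate 3, which takes no part in the difference but adds to the shared spread, 1176 were called. Of the 646 probes, 21 were called in all 6 fits that left out 1 compared array, 173 in at least 3 and 94 in none. The 12 of those 21 with a symbol were Rpl7, Rpl23, Rpl37l1, Gltp, Cdc16, Marchf2 and Ctu2 among the rises and Atp2b2, Pi4k2a, Klhl24, Ppargc1a and Prpf38b among the falls.

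Ribosomal protein genes were among the rises called in every fit that left out a compared array. Rpl7, a protein of the large subunit, had levels of 12.81, 12.96 and 12.88 on the 0.2 mg/kg arrays and 11.68, 11.72 and 11.62 on the 0.002 mg/kg arrays. All 0.2 mg/kg pups lay above all 0.002 mg/kg pups, and the difference was 1.21 (SE 0.06, adjusted p = 0.000721 in limma). Rpl37l1, annotated as like the large subunit protein Rpl37, had 11.92, 12.30 and 11.94 at 0.2 mg/kg against 10.30, 10.34 and 10.47 at 0.002 mg/kg. Its difference of 1.68 (SE 0.11, adjusted p = 0.00148) was the largest of any probe with a symbol among the calls. Rpl23, also of the large subunit, had 13.47, 13.71 and 13.55 at 0.2 mg/kg and 12.69, 12.71 and 12.70 at 0.002 mg/kg. The 0.002 mg/kg pups were nearly equal (SD 0.009), and the difference was 0.87 (SE 0.06, adjusted p = 0.00148). Rpl24 rose by 0.85, Rps29 of the small subunit by 0.61, Rps21 by 0.46, Rps14 by 0.41 and Rpl14 by 0.39.

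Of 65 cytosolic ribosomal protein genes measured, 12 rose (18.5%) and none fell, while 1.77% of 13337 genes with 1 probe each rose and 1.64% fell. Of the 65, 58 lay above 0, and their median difference was 0.24. Over all genes 50.4% lay above 0, with a median of 0.0005. Only 5 of the 65 had a mean under 8, so dim probes weigh less in this list than in the array as a whole. Members not called included Rpl30 at -1.26, with an SD of 2.25 at 0.2 mg/kg and 0.48 at 0.002 mg/kg, and Rps9 at 1.39, with SDs of 1.31 and 1.56 in the same order. Averaged over the 65 genes and taken relative to the mean of the 9 arrays, the 0.2 mg/kg arrays stood at 0.05, 0.28 and 0.16 and the 0.002 mg/kg arrays at -0.08, -0.14 and -0.14. The vehicle arrays stood at -0.09, -0.07 and 0.03. The doses did not overlap, and replicate 2 was the highest. Without it 7 members were called higher and the median was 0.17, and over the 6 fits that left out a compared array between 3 and 13 were called, with 3 whichever of the 0.002 mg/kg arrays was left out. Ribosomal protein genes have many near-identical copies in the genome, and whether a probe also binds those was not tested.

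Among other genes of translation, Ctu2, which helps to thiolate transfer RNA, rose by 0.38 (SE 0.03, adjusted p = 0.00511). Of 48 initiation and elongation factors, none rose and 1 fell (2.1%, near the 1.64% of all genes). The fall was in Eif3a, a large subunit of initiation factor 3, by 0.31. Their median was 0.01. A probe of Eef1a1, the elongation factor that brings transfer RNA to the ribosome, had 14.02, 13.74 and 13.94 at 0.2 mg/kg and 13.00, 13.17 and 12.94 at 0.002 mg/kg, a difference of 0.86 (adjusted p = 0.0145). The other 4 Eef1a1 probes differed by between 0.006 and 0.049 and were not called, so the probes of this gene disagreed.

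Mitochondrial ribosomal proteins, which translate the few proteins encoded by mitochondrial DNA, had 3 rises (5.2%) and no falls among 58 genes. Over all genes 1.77% rose and 1.64% fell. Mrps18a had 12.72, 12.85 and 12.64 at 0.2 mg/kg and 12.09, 11.98 and 11.95 at 0.002 mg/kg, a difference of 0.73 (adjusted p = 0.0287). Mrpl16 rose by 0.38 and Mrpl15 by 0.35. Of the 58, 47 lay above 0 and the median was 0.21. In oxidative phosphorylation 3 of 62 genes rose (4.8%) and 1 fell (1.6%), 51 lay above 0, and the median was 0.13. Against vehicle, the median of the mitochondrial ribosomal list was 0.09 at 0.2 mg/kg and -0.12 at 0.002 mg/kg. That of oxidative phosphorylation was 0.03 at 0.2 mg/kg and -0.11 at 0.002 mg/kg. Cox5b, a subunit of cytochrome c oxidase, rose by 0.59, and the complex I subunits Ndufv2 and Ndufb9 rose by 0.39 and 0.33. Sdha, the flavoprotein of complex II, fell by 0.20. Ppargc1a, a coactivator that drives the making of mitochondria, fell: it had 8.14, 8.10 and 8.16 at 0.2 mg/kg and 8.71, 8.56 and 8.59 at 0.002 mg/kg, a difference of -0.49 (SE 0.04, adjusted p = 0.00511). Without replicate 2 of the 0.2 mg/kg group none of the 58 mitochondrial ribosomal genes and none of the 62 oxidative phosphorylation genes was called, and the medians were 0.18 and 0.08. Neither list had a call without replicate 1, 2 or 3 of the 0.002 mg/kg group either. Over all 6 fits the rises numbered 0 to 1 among the 58 and 0 to 2 among the 62.

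Of 37 proteasome subunits, which degrade ubiquitin-tagged proteins, 4 rose (10.8%, against 1.77% of all genes) and none fell, with a median of 0.08. Psmb10, a catalytic subunit of the immunoproteasome, rose by 0.64 (adjusted p = 0.0404), while its second probe stood at 0.55 and was not called. The constitutive catalytic subunit Psmb6 rose by 0.63, Psmd9 by 0.43 and the ATPase Psmc3 by 0.40. Psmc3 was called in 5 of the 6 fits with an array left out, and the count of rising subunits ranged from 0 to 3 over them, with 1 without replicate 2 of the 0.2 mg/kg group. Among 15 enzymes of glycolysis, Gapdh rose by 0.39 and Pfkl, a phosphofructokinase, fell by 0.59. Among 64 chaperones, 1 rose (1.6%) and 2 fell (3.1%), near the 1.77% and 1.64% of all genes, and 32 lay above 0. Dnajb14, a co-chaperone of the endoplasmic reticulum, had 8.67, 8.85 and 9.04 at 0.2 mg/kg against 9.62, 9.78 and 10.23 at 0.002 mg/kg, a difference of -1.02 (adjusted p = 0.0311).

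**Figure D2:**
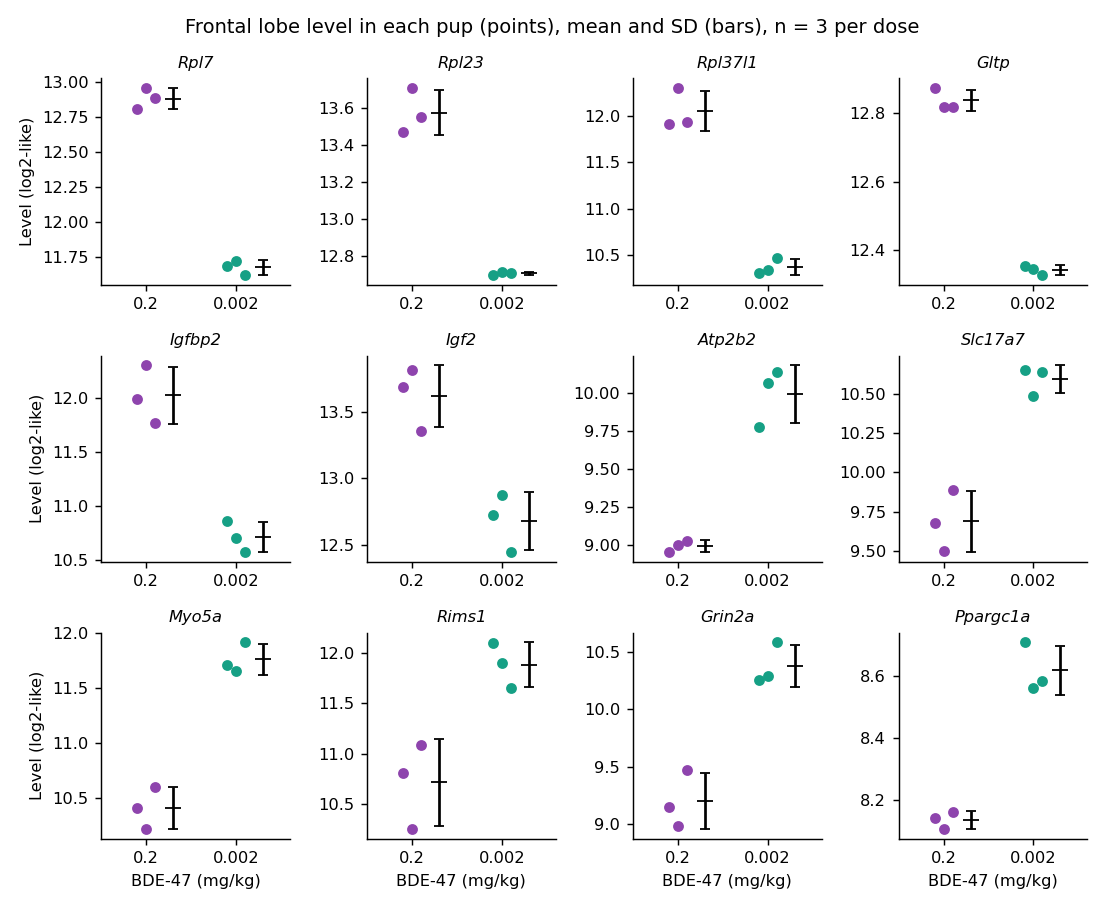
Frontal lobe level (log2-like units) in each pup for 12 genes, with the 0.2 mg/kg pups (purple) left of the 0.002 mg/kg pups (green); bars are mean and SD, n = 3 each, and each panel has its own scale. The doses do not overlap in any panel; Rpl7, Rpl23, Rpl37l1, Gltp, Igfbp2 and Igf2 are higher at 0.2 mg/kg, and Atp2b2, Slc17a7, Myo5a, Rims1, Grin2a and Ppargc1a lower.

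Genes of synaptic vesicle release were lower at 0.2 mg/kg. Of 26 measured, 9 fell (34.6%) and none rose, 23 lay below 0, and the median was -0.17. Slc17a7, which fills vesicles with glutamate, had 9.68, 9.5 and 9.89 at 0.2 mg/kg and 10.65, 10.49 and 10.64 at 0.002 mg/kg. The groups stood apart by more than their spread, and the difference was -0.91 (SE 0.10, adjusted p = 0.0110). Rims1, which organizes the active zone, had 10.81, 10.24 and 11.09 at 0.2 mg/kg against 12.10, 11.91 and 11.66 at 0.002 mg/kg, a difference of -1.17 (SE 0.24, adjusted p = 0.0461). Nsf, the ATPase that takes spent fusion complexes apart, had 12.24, 11.97 and 12.09 at 0.2 mg/kg and 12.85, 12.82 and 13.00 at 0.002 mg/kg, a difference of -0.79 (adjusted p = 0.0139).

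Further falls of this list were the calcium sensor of fusion Syt1 by 0.67, the active zone protein Pclo by 0.63, the liprin Ppfia3 by 0.59, the vesicle coat protein Syn1 by 0.52 and the vesicle membrane protein Syp by 0.50. Outside the rule for named genes, the fusion protein Snap25 also fell, with a difference of -0.73; it is named after its value was seen. Rab3a (-0.56) and Vamp2 (-0.22) were not called, and Syn2 stood at 0.23. The list average relative to the 9 arrays was -0.12, -0.30 and -0.12 at 0.2 mg/kg, 0.14, 0.13 and 0.14 at 0.002 mg/kg and 0.04, 0.06 and 0.03 with vehicle. Each group kept to its own range, the vehicle arrays lying between the doses. Without replicate 2 of the 0.2 mg/kg group 5 members were called, and over the 6 fits between 1 and 8, with 1 whichever of the 0.002 mg/kg arrays was left out.

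The retrieval of vesicles went the same way. Of 22 genes of synaptic vesicle endocytosis, 8 fell (36.4%), none rose, and the median was -0.14. Snap91, the clathrin adaptor AP180, had 11.55, 11.26 and 11.85 at 0.2 mg/kg and 12.49, 12.42 and 12.54 at 0.002 mg/kg, a difference of -0.94 (adjusted p = 0.0380). Pi4k2a, a lipid kinase of vesicle membranes, had 9.12, 8.86 and 8.85 at 0.2 mg/kg against 9.92, 9.65 and 9.76 at 0.002 mg/kg, a difference of -0.83 (SE 0.09, adjusted p = 0.0110). It was called whichever compared array was left out. The adaptor Epn1 fell by 0.81, the fission protein Dnm1 by 0.68, the AP2 subunits Ap2a1 and Ap2m1 by 0.48 and 0.34, clathrin heavy chain Cltc by 0.47 and the lipid kinase Pip5k1c by 0.30. Clta, a clathrin light chain, stood at 0.17 and was not called. The list average was -0.09, -0.24 and -0.16 at 0.2 mg/kg, 0.15, 0.09 and 0.10 at 0.002 mg/kg, and 0.05, 0.04 and 0.05 with vehicle. Without replicate 2 of the 0.2 mg/kg group 3 members were called, and over the 6 fits between 1 and 7, with 1 or 2 when a 0.002 mg/kg array was left out.

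Promoters are shown for genes of the groups that moved in opposite directions, as the 250 bases before the annotated start in RefSeq on build GRCr8, 5′ to 3′ in the direction of the gene. Capitals mark CCGGAAG and GGGCGG on either strand (CTTCCGG and CCGCCC), and matches may overlap. The first pair belongs to genes that rose, Rps14 at chr18:56498010-56498259 (+) and Mrps18a at chr9:22367381-22367630 (-). The second pair belongs to genes that fell, Slc17a7 at chr1:104785955-104786204 (+) and Nsf at chr10:89357384-89357633 (-). They were picked to show the motifs.
Rps14: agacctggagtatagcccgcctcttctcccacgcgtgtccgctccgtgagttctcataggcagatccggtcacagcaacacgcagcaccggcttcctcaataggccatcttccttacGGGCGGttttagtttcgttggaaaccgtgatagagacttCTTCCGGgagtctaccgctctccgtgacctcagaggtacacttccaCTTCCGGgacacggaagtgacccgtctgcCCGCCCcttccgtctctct
Mrps18a: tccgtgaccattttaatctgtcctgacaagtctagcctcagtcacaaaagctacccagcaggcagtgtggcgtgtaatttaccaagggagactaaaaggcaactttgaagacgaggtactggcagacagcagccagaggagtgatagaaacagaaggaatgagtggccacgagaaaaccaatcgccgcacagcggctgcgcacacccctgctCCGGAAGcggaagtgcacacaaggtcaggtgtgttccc
Slc17a7: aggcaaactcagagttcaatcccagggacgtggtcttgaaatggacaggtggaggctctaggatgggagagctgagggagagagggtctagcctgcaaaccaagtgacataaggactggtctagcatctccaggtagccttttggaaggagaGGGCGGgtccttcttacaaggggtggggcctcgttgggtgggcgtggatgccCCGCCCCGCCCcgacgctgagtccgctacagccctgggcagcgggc
Nsf: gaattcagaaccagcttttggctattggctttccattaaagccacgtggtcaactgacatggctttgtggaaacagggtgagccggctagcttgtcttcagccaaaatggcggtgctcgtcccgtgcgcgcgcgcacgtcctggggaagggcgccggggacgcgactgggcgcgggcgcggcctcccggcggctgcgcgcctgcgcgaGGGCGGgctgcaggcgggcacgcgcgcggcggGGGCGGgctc

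CCGGAAG, the core letters bound by Ets family factors, occurred in 19.2% of 203 promoters of genes that rose, in 11.3% of 186 promoters of genes that fell, in 11.1% of 10976 measured genes and in 7.74% of all 27457 promoters in the table. GGGCGG, bound by Sp family factors, occurred in 64.0% of promoters of rises and 67.2% of falls, against 46.9% of measured genes and 32.4% of all promoters. CCAAT was found in 40.4% of rises and 28% of falls (34.9% of measured genes, 34.3% of all promoters), and TATAAA in 8.87% and 3.76% (11.6% of measured genes, 13.1% of all promoters). The other motifs searched on both strands were AGCACC, found in 13.8% of rises and 17.7% of falls (13.3% of measured genes, 13.6% of all promoters), TGACGTCA, in 1.48% and 4.30% (2.32% and 1.70%), the palindromic NRF1 motif, in 1.97% and 3.23% (1.23% and 0.849%), and the palindromic TCTCGC motif of ZBTB33, in 0.493% and 0.538% (0.610% and 0.393%). CCGCCC and GGGCGG are the same motif on opposite strands, and no searched motif contains another. The median GC content was 58.8% for rises, 64.8% for falls and 57.2% for measured genes, and a match is a description of the letters only. Promoters were in the table for 82.3% of measured genes.

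**Figure D3:**
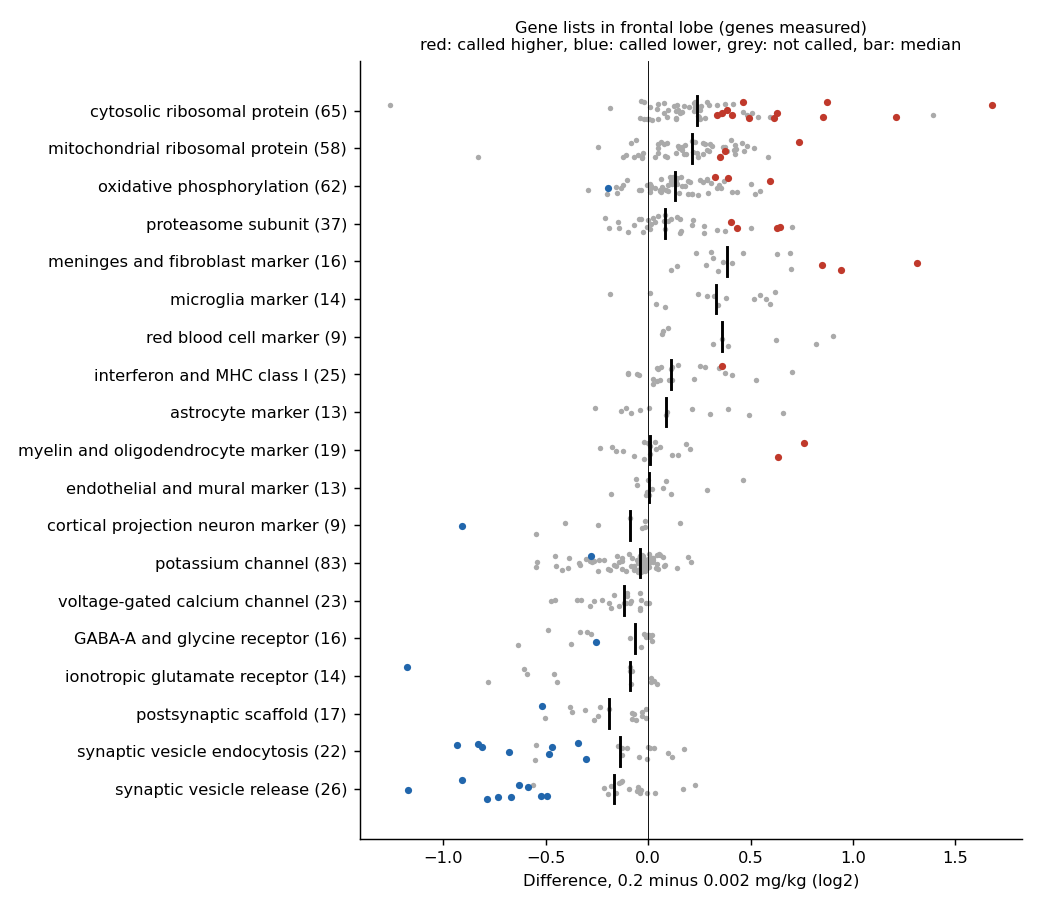
Difference between 0.2 and 0.002 mg/kg (log2) of each measured gene in 19 lists, 1 point per gene, with red for called higher, blue for called lower, grey for not called and a black bar at the list's median. Ribosomal, meningeal, microglia and red blood cell lists sit to the right of 0, and the lists of vesicle release, vesicle endocytosis and postsynaptic scaffold to the left.

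On the receiving side of the synapse few genes were called, and most differences were negative. All 17 postsynaptic scaffold genes lay below 0, with a median of -0.19. Cnksr2, a scaffold of Ras signalling, was the 1 fall (5.9%, against 1.64% of all genes), by 0.52. Without replicate 2 of the 0.2 mg/kg group the median was -0.09, without replicate 3 of the 0.002 mg/kg group it was -0.13, and in 5 of the 6 fits with an array left out none of the 17 was called. Of 14 ionotropic glutamate receptor genes 1 fell (7.1%). That was Grin2a, an NMDA receptor subunit that increases as cortex matures, with 9.15, 8.98 and 9.47 at 0.2 mg/kg and 10.26, 10.29 and 10.59 at 0.002 mg/kg, a difference of -1.18 (SE 0.21, adjusted p = 0.0311). The obligatory subunit Grin1 (-0.60, adjusted p = 0.0632) and Grin2b (-0.59, adjusted p = 0.0578) were not called. No metabotropic glutamate receptor gene was called among 6, and 5 lay below 0.

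Of 16 GABA-A and glycine receptor genes 1 fell (6.2%, against 1.64% of all genes), the extrasynaptic subunit Gabrd, by 0.25 (adjusted p = 0.0228). The alpha subunit Gabra5 stood at -0.64 and was not called (adjusted p = 0.0794). Among 83 potassium channel genes 61 lay below 0 with a median of -0.04, and 1 fell in the probes used for the list (1.2%, near the 1.64% of all genes), Kcnj13. One probe of Kcnc2, a channel of fast-spiking neurons, fell by 1.26 (adjusted p = 0.0324), while its 2 other probes stood at -0.39 and -0.34 and were not called. None of 11 voltage-gated sodium channel genes and none of 23 calcium channel genes was called, though 22 of the 23 calcium channel genes lay below 0, with a median of -0.12. Pex5l, which regulates HCN channels, fell by 0.88 (adjusted p = 0.0168).

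Atp2b2, the plasma membrane pump that removes calcium from neurons, had 8.95, 9.0 and 9.03 at 0.2 mg/kg and 9.78, 10.06 and 10.14 at 0.002 mg/kg. The 0.2 mg/kg pups were close together, all below the 0.002 mg/kg pups, and the difference was -1.0 (SE 0.08, adjusted p = 0.00511). Atp2a2, the pump of the endoplasmic reticulum, fell by 0.56. Of 17 pump and release channel genes 3 fell (17.6%) and 1 rose (5.9%), against 1.64% and 1.77% of all genes. The rise was Stim1, which senses calcium in the endoplasmic reticulum, by 0.43. The ryanodine receptor gene Ryr2, a calcium release channel, had 2 of 4 probes called, at -0.38 and -0.26, while the other 2, with means under 8, stood at 0.05 and 0.001. Hpcal4, a neuronal calcium sensor, had 10.01, 9.87 and 10.44 at 0.2 mg/kg against 11.64, 11.35 and 11.33 at 0.002 mg/kg, a difference of -1.33 (adjusted p = 0.0264). Plcb1, a phospholipase that releases stored calcium, fell by 0.96 and the kinase gene Prkcb by 0.45.

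Myo5a, the myosin that carries cargo into dendritic spines, had 10.41, 10.21 and 10.59 at 0.2 mg/kg and 11.71, 11.66 and 11.92 at 0.002 mg/kg, a difference of -1.36 (SE 0.15, adjusted p = 0.0110), the farthest fall of a named gene. Of 54 motor genes 1 fell and 1 rose (1.9% each, near the 1.64% and 1.77% of all genes). The rise was Klc4, a kinesin light chain, by 0.27. Nefl, the neurofilament light chain, fell by 0.62 (adjusted p = 0.0180). Cpne4, a calcium-binding copine, fell by 1.2, the co-chaperone Sgtb by 1.09, the transcription repressor Zbtb7a by 1.01 and the Polycomb protein Cbx6 by 0.90. Klhl24, a ubiquitin ligase adaptor, fell by 0.64 and the splicing factor Prpf38b by 0.42, both called in every fit with an array left out. No immediate early gene was called among 19; Arc stood at -1.27 with SDs of 0.52 in both groups (adjusted p = 0.239) and Fos at -0.44 (adjusted p = 0.163).

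Igf2 and Igfbp2 rose. Igfbp2, which binds insulin-like growth factors, had 11.99, 12.31 and 11.78 at 0.2 mg/kg and 10.86, 10.70 and 10.58 at 0.002 mg/kg, a difference of 1.31 (SE 0.13, adjusted p = 0.0106). Igf2, made in the adult brain mainly by meninges and choroid plexus, had 13.69, 13.81 and 13.36 at 0.2 mg/kg against 12.72, 12.88 and 12.44 at 0.002 mg/kg, a difference of 0.94 (SE 0.18, adjusted p = 0.0381). Both were higher in every 0.2 mg/kg pup. They were the only calls among 16 genes of the insulin-like growth factor system (12.5%, against 1.77% of all genes), whose median was 0.02. Over the 6 fits with an array left out 0 to 2 of the 16 were called, with 0 without replicate 2 of the 0.002 mg/kg group. Crabp2, a retinoic acid binding protein of meninges, rose by 0.85 (adjusted p = 0.0401). These 3 were also the calls among 16 meningeal and fibroblast markers (18.8%). All 16 lay above 0, with a median of 0.39. One of the 16 had a mean under 8.

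The meningeal list averaged 0.23, 0.49 and 0.06 at 0.2 mg/kg, -0.20, -0.30 and -0.24 at 0.002 mg/kg, and 0.16, 0.06 and -0.25 with vehicle. Without replicate 2 of the 0.2 mg/kg group 2 markers were called and the median was 0.31, and over the 6 fits 0 to 4 were called. No listed marker of microglia or red blood cells was called, though Lgals5, a galectin of rat blood cells outside these lists, rose. Of 14 microglia markers 13 lay above 0 with a median of 0.33 (0.18 without replicate 2 of the 0.2 mg/kg group), and the list averaged 0.03, 0.48 and 0.08 at 0.2 mg/kg and -0.03, -0.14 and -0.18 at 0.002 mg/kg. All 9 red blood cell markers lay above 0 with a median of 0.36; the list averaged 0.20, 0.31 and 0.13 at 0.2 mg/kg and -0.33, -0.15 and -0.10 at 0.002 mg/kg. Means under 8 were found for 4 of the microglia markers and 3 of the red blood cell markers. Of 10 olfactory bulb markers 8 lay above 0, with a median of 0.24 (0.002 to 0.43 over the 6 fits), and none was called. That list averaged 0.46, -0.01 and 0.12 at 0.2 mg/kg and -0.31, 0.11 and 0.06 at 0.002 mg/kg, so the doses overlapped. With vehicle it averaged -0.27, -0.40 and 0.24. The part these markers play in the rises of Igf2, Igfbp2, ribosomal and proteasome genes, or in the falls of synaptic genes, was not tested.

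**Figure D4:**
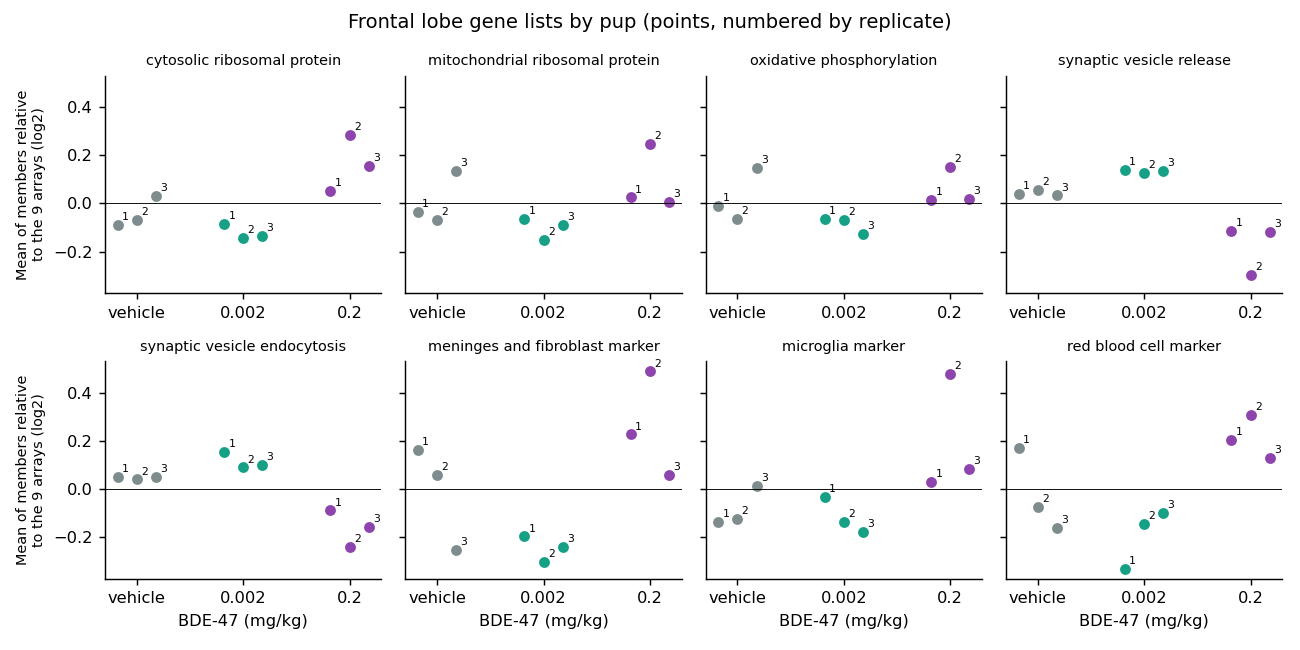
Mean of the members of 8 lists on each frontal lobe array relative to the mean of the 9 arrays (log2), for vehicle, 0.002 and 0.2 mg/kg, with points numbered by replicate. In all 8 panels the 0.2 mg/kg arrays do not overlap the 0.002 mg/kg arrays, and replicate 2 of the 0.2 mg/kg group is the outermost array of its dose.

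Among neuronal markers, Slc17a7 was the only call of 9 genes of cortical projection neurons (11.1%), 8 of which lay below 0 with a median of -0.09. Among 13 interneuron markers 1 fell (7.7%), the transcription factor Lhx6, by 0.15, and 9 lay above 0. Gad2, which makes GABA, stood at -0.72 and was not called (adjusted p = 0.0707). Of 19 myelin and oligodendrocyte markers 2 rose (10.5%). Over all genes 1.77% rose and 1.64% fell. Nkx6-2, a transcription factor of oligodendrocytes, had 9.70, 9.82 and 9.88 at 0.2 mg/kg and 9.0, 9.06 and 9.05 at 0.002 mg/kg, a difference of 0.76 (adjusted p = 0.0106), and Hapln2, a matrix protein of nodes, rose by 0.63. Mbp, a main protein of myelin, differed by 0.06 (SE 0.27) and its groups overlapped. Gfap, the filament protein of astrocytes, had 12.27, 13.55 and 12.32 at 0.2 mg/kg and 12.34, 12.76 and 12.12 at 0.002 mg/kg. Only replicate 2 stood high, and Gfap was not called (0.30, SE 0.35). None of 13 astrocyte and none of 13 endothelial markers was called.

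Of 24 measured genes of the thyroid hormone axis 1 fell, Rcan2, a calcineurin regulator induced by the hormone, by 0.44 (adjusted p = 0.0455), and the median was -0.01. The receptor gene Thrb stood at -0.70 (adjusted p = 0.0523) and Klf9, a target of the receptor, at -0.15, neither called. Hr, another target, differed by -0.02, Dio2, which activates the hormone, by -0.03 and Thrsp by 0.50 with an SE of 0.35. Thus 1 of 24 was called (4.2%), against 3.41% of all genes.

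Of 35 genes of xenobiotic metabolism and the Nrf2 response 2 rose (5.7%) and 1 fell (2.9%), against 1.77% and 1.64% of all genes. Over the 6 fits with an array left out 0 to 5 rose and 0 to 1 fell. Keap1, which holds Nrf2 inactive, had 9.88, 9.75 and 9.97 at 0.2 mg/kg and 10.55, 10.40 and 10.43 at 0.002 mg/kg, a difference of -0.59 (SE 0.07, adjusted p = 0.0110). Gsta4, which detoxifies lipid peroxidation products, rose by 0.42, and Fth1, the ferritin heavy chain, by 0.21. Nqo1, a quinone reductase and target of Nrf2, had 10.04, 10.56 and 10.04 at 0.2 mg/kg against 9.66, 9.58 and 9.5 at 0.002 mg/kg. Its groups did not overlap, and at 0.63 it just missed the threshold (adjusted p = 0.0501). Cyp1a1, the usual marker of the dioxin receptor, differed by 0.02 at a level of 7.61 at 0.2 mg/kg and 7.60 at 0.002 mg/kg, close to the floor. Fmo1, a flavin monooxygenase outside that list, rose by 0.79 (adjusted p = 0.0264).

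Other leading rises had diverse roles. Lgals5, a galectin of rat blood cells, had 9.05, 9.90 and 9.65 at 0.2 mg/kg and 8.20, 8.23 and 8.14 at 0.002 mg/kg, a difference of 1.35 (adjusted p = 0.0180). Glmp, a lysosomal membrane protein, rose by 0.94, Tmem256 by 0.89, the prefoldin subunit Pfdn1 by 0.84 and Fmc1, an assembly factor of mitochondrial ATP synthase, by 0.83. Gltp, which transfers glycolipids, had 12.88, 12.82 and 12.82 at 0.2 mg/kg against 12.35, 12.34 and 12.33 at 0.002 mg/kg. With SDs of 0.03 and 0.01 its modest difference of 0.50 (SE 0.03) had an adjusted p of 0.000866. Marchf2, a membrane ubiquitin ligase, rose by 0.60, while its second probe stood at 0.27 and was not called. Dgat2, which makes triglyceride, rose by 0.50 and Pak1ip1, a factor of ribosome assembly, by 0.41. One probe of Cdc16, a subunit of the anaphase promoting complex, rose by 0.46 (SE 0.04), but its other probe stood at -0.03.

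Among the calls, the farthest differences belonged to probes without a gene symbol. Probe ILMN_1362081 had 10.59, 10.82 and 11.06 at 0.2 mg/kg and 12.58, 12.75 and 13.11 at 0.002 mg/kg, a difference of -1.99, and ILMN_1373381 also fell by 1.99. Probe ILMN_1353357 had 11.61, 11.94 and 11.53 at 0.2 mg/kg against 9.71, 9.68 and 9.77 at 0.002 mg/kg, a difference of 1.97 that was called whichever array was left out. ILMN_1362029 rose by 1.82 and was called in none of those 6 fits. What these probes detect is not given in the sources used here.

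Vehicle arrays place the 646 probes relative to unexposed pups. The comparisons of each dose with vehicle share arrays with the comparison of the doses and are given side by side only. At 0.2 mg/kg against vehicle 257 of 22523 probes were called (1.14%), in genes 187 of 13337 (1.4%), and 209 of the 646 were among them. At 0.002 mg/kg against vehicle limma called 0 (0.0%), with 1151 probes at an unadjusted p under 0.05. The vehicle mean lay between both dose means for 525 of the 646 (81.3%), as for 41.1% of all probes, and beyond the 0.002 mg/kg mean for 119. The vehicle mean was nearer to the 0.002 mg/kg mean for 584 (90.4%), as for 58.9% of all probes. The 646 were picked for a gap between the dose means, which by itself favours a vehicle mean between them. Rpl7 differed from vehicle by 1.16 at 0.2 mg/kg and by -0.05 at 0.002 mg/kg. Atp2b2 differed by -0.69 at 0.2 mg/kg and by 0.30 at 0.002 mg/kg, and Igfbp2 by 0.88 at 0.2 mg/kg and by -0.43 at 0.002 mg/kg. Thus for Rpl7 nearly all of the distance lay at the higher dose, and for Atp2b2 and Igfbp2 vehicle lay between the doses. Rims1, at -0.60 for 0.2 mg/kg and 0.58 for 0.002 mg/kg, was midway and not called against vehicle at 0.2 mg/kg (adjusted p = 0.292).

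The same comparison of doses in total brain used other pups, at postnatal day 10 after 3 injections per dam, so tissue, age and schedule differ together. There limma called 0 of 22523 probes (0.0%), with 1321 at an unadjusted p under 0.05. Of the 646 probes, 558 (86.4%) had the same sign in total brain, as did 60.0% of all probes, and the median total brain difference was 0.14 for rises and -0.08 for falls. Over the 646 probes the differences in the tissues correlated at r = 0.74 and over all probes at 0.56, as a description across probes that share arrays and annotation. The difference between tissues was tested directly and was called for 35 probes (0.155%), 34 of them among the 646, and for 19 with replicate number as a block. In 34 of the 35 the frontal lobe difference was the larger. The sample titles name no dam, so pups of the 2 tissues may share litters, and the fit over both tissues took all arrays as independent.

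Rpl7 differed by 1.21 in frontal lobe and by 0.10 in total brain, a difference between tissues of 1.11 (adjusted p = 0.00113). Rpl37l1 differed by 1.68 in frontal lobe and 0.24 in total brain, and Rpl23 by 0.87 in frontal lobe and 0.06 in total brain. Slc17a7 was at -0.91 in frontal lobe and 0.36 in total brain, a difference between tissues of -1.27 (adjusted p = 0.00320). Atp2b2 stood at -1.0 in frontal lobe and at -0.04 in total brain (adjusted p = 0.00320). The vesicle genes Nsf and Syp, at -0.79 and -0.50 in frontal lobe, were near 0 in total brain, at -0.01 and 0.005, but the test of the difference between tissues did not call them. Ribosomal genes leaned the same way in both tissues, with 55 of 65 above 0 and a median of 0.10 in total brain. So did oxidative phosphorylation, with 48 of 62 above 0 and a median of 0.14 there, against 0.13 in frontal lobe. Mitochondrial ribosomal genes had 43 of 58 above 0 and a median of 0.07 in total brain.

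**Figure D5:**
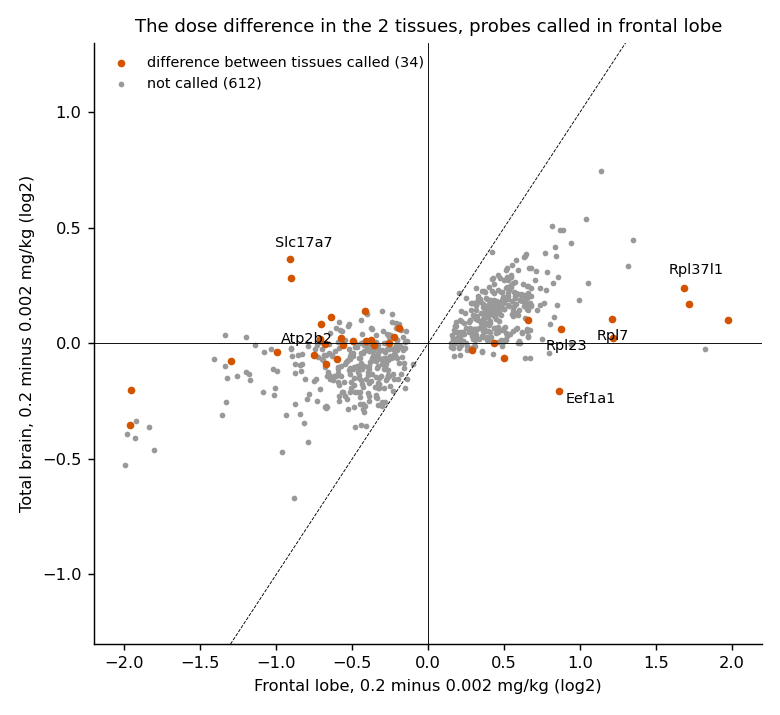
Difference between 0.2 and 0.002 mg/kg (log2) in frontal lobe (horizontal) and in total brain (vertical) for the 646 probes called in frontal lobe, with a dashed line of equality. Orange points are the 34 probes whose difference between tissues was called; most points lie nearer to 0 in total brain than in frontal lobe.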

How the data were processed

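Total RNA from frontal lobes of individual pups was labelled with biotin and hybridized to Illumina rat arrays, per the labels' protocols. Per the submitters' processing notes the authors used lumi, and what they deposited are log2-like intensities. Which version, background correction, transformation (log2 or variance stabilization) and normalization they chose is not given in the sources used here. No detection p-values were used. A variance-stabilized scale would compress differences near the floor. The values were used without further change or filter.

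For each probe a model of group means over the 9 frontal lobe arrays gave the differences (limma 3.58.1, R 4.3.3). A call needed an adjusted p under 0.05, by Benjamini and Hochberg over all 22523 probes. Total brain was fitted on its own 9 arrays, and the difference between tissues on all 18. Symbols came from the platform annotation, updated by Entrez identifier to RefSeq (13752 probes matched); 8730 probes had none. The 42 gene lists, with 1 probe per gene (the highest mean), are described by counts and medians without a test. Members, lists and the rule for named genes were chosen with earlier results of these data known. The rule took the 15 largest rises and 15 largest falls whose groups did not overlap, the 10 of each with the smallest adjusted p over fits that left out an array, called or leading members of lists, preset genes, the farthest unnamed probes and leading differences between tissues. Alternatives were other normalizations, filters, variance priors, array weights, a block and other sets of arrays. Figures were drawn with matplotlib 3.10.9.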

Additional observations from a re-analysis of the deposited data

Results flagged for a closer look

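The difference between the doses was not the same in frontal lobe and total brain, by limma's interaction test, for 35 of 22523 probes. The frontal lobe difference minus the total brain difference was 1.87 for the unnamed probe ILMN_1353357, 1.44 for Rpl37l1, 1.11 for Rpl7, 1.07 for 1 of 5 Eef1a1 probes, 0.81 for Rpl23 and 0.56 for the lipid phosphatase gene Plpp2. It was -1.27 for Slc17a7, -0.96 for Atp2b2, -0.56 for Prpf38b, -0.39 for the synaptic gene Lzts3, -0.29 for the aminopeptidase gene Npepps and -0.26 for the kinase gene Cdk18. Npepps was the 1 probe of the 35 not called in frontal lobe itself, at -0.14 there and 0.15 in total brain. Tissue, age and injection schedule cannot be told apart in these differences.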

How the results depend on the processing

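For the doses in frontal lobe the 646 calls became 1182 among the brighter 50% of probes, 1211 with trend and robust options, 1066 with array weights and 1122 with all 18 arrays in the fit; quantile normalization gave 662 and median centring 655. Leaving out each array gave 28 to 1176 calls. For 0.2 mg/kg against vehicle the 257 calls became 559 among the brighter 50%, 487 with trend and robust options, 633 with all 18 arrays and 5 with the compared arrays alone, and 27 to 1036 when an array was left out. For total brain the count of 0 became 2 with trend and robust options and 0 to 1 with an array left out. The 35 differences between tissues became 73 with trend and robust options, 111 with array weights and 15 to 105 with an array left out. With replicate number as a block the counts were 65 for the doses, 43 for 0.2 mg/kg against vehicle and 19 between tissues; in frontal lobe same-numbered arrays of the doses deviated together at r of 0.04 to 0.11, so the numbers were not taken as a pairing there. In total brain they did so at r of 0.16 to 0.44, where the block left the count at 0, so the block's 19 stands beside the 35 between tissues. The cause of these changes was not tested.

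Signs of genes that were not called turned when an array was left out: Hr ranged from -0.062 to 0.007, Cyp1a1 from -0.001 to 0.028, Mbp from -0.197 to 0.208 (-0.095 without replicate 1 of the 0.2 mg/kg group), Bmp4 from -0.003 to 0.134 and Gfap from -0.115 to 0.526. Outside such fits no named gene changed sign, 1220 results on named genes kept their side of the threshold, 116 lost it and 106 gained it. Many probes lie close to the floor, which limits small differences there.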

Other observations

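Genes that fell were longer in the genome than genes that rose. The median span from start to end in RefSeq GRCr8 was 10.8 kb for 236 genes that rose, 42.0 kb for 219 genes that fell and 18 kb for 13337 measured genes, of which 99.7% had a span. In the fifth of genes with the shortest spans (up to 4.4 kb) 58 rose (2.18%) and 5 fell (0.19%). In the fifth with the longest (from 59.21 kb) 24 rose (0.9%) and 80 fell (3.01%). Over all genes 1.77% rose and 1.64% fell. The median difference of all genes in the fifth was 0.01 for the shortest spans and -0.027 for the longest. The span was looked at after the data were seen, and it is given without a test.

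Levels at 0.2 mg/kg in the frontal lobe were often nearer to those of the younger total brain than levels at 0.002 mg/kg were. For 480 of the 646 called probes (74.3%), and for 54.5% of all probes, the 0.2 mg/kg mean was the nearer of both to the total brain vehicle mean. Rpl7 stood at 12.88 at 0.2 mg/kg and 11.67 at 0.002 mg/kg in frontal lobe, and at 12.99 in total brain of vehicle pups. Slc17a7 stood at 9.69 at 0.2 mg/kg and 10.60 at 0.002 mg/kg in frontal lobe, and at 9.31 in total brain of vehicle pups. Whether the tissues share a normalization is not given in the sources used here, so levels are only roughly comparable between them.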
